A study of Mus musculus with 4 samples.

Results

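Dermal RNA of dorsal skin was compared with dermal RNA of abdominal skin in 3 states, to describe differences between the body sites that held whatever the pregnancy or drug state of the abdominal sample. The comparison used all 4 arrays of the series, 1 for each condition. The dorsal array came from pregnant mice injected with the vehicle dimethyl sulphoxide (DMSO). The virgin abdominal array came from virgin mice injected with DMSO, the 15 dpc abdominal array from pregnant mice injected with DMSO, and the PP2 abdominal array from pregnant mice injected with PP2, an inhibitor of Src family kinases. All were C57BL/6 females aged 10 weeks by the labels. They received 2 intradermal injections a day for 4 days, which began at 12 days post coitum (dpc) in the pregnant mice. The titles of the pregnant samples give 15 dpc and their descriptions 16 dpc. The number of mice behind each array was not stated in the labels or the methods.

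For each gene the log2 ratio of the dorsal signal over each abdominal signal was taken, and the smallest of the 3 ratios described the gene when all 3 had the same sign. The signal is a brightness in arbitrary units that the array software computed for a probe set, a group of short probes for 1 transcript. The software also called each probe set present, marginal or absent. Of 34945 probe sets with a single gene symbol, 24581 were called present on at least 1 array, and they stood for 13585 of the 18193 genes named on the array. Each gene was represented by its brightest tested probe set. A gene was called higher when its dorsal signal was present and over 2-fold above each abdominal signal, and lower when all 3 abdominal signals were present and over 2-fold above the dorsal signal.

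No condition was replicated, so no p-value or error is given. The 3 abdominal arrays differ in state and are not replicates, and their range is used as a yardstick only. Both the virgin state and PP2 were sampled in abdominal skin alone, so a difference between the sites cannot be told apart from anything else particular to the 1 dorsal array. Present calls covered 58.4% to 59.7% of probe sets, with 58.8% on the dorsal array. The 3′ probe set of *Actb* over the 5′ one, a sign of RNA integrity, was 4.14 on the dorsal array and 2.03 to 2.70 on the others, and that of *Gapdh* was 2.97 against 1.41 to 5.84. The part of RNA integrity in the differences below was not tested.

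The dermis is the fibrous layer of skin, made by fibroblasts that secrete collagen, and it houses hair follicles, sebaceous glands, vessels, nerves and immune cells. The epidermis above it ends in cornified cells, whose envelope is built from loricrin, filaggrin and small proline-rich or late envelope proteins. Sebaceous glands, attached to the follicles, fill with lipid and make cholesterol, long-chain fatty acids and waxes. In this study subcutaneous fat was cut away, the skin was treated with dispase and scraped, and dermal cells were freed with collagenases, with no sorting step given. On all 4 arrays the fibroblast genes *Col1a2* and *Col3a1*, which encode chains of fibrillar collagens, were present with signals of 19808 to 30307. Keratinocyte genes were present as well: the basal keratin gene *Krt14* had 13083 on the dorsal array and 10184 to 14877 on the abdominal arrays, and *Krt10*, of the layers above, 38195 against 15645 to 26475.

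By this rule 163 genes (1.2% of those tested) were called higher on the dorsal array and 199 (1.46%) lower. Over all probe sets tested, 291 (1.18%) were higher and 301 (1.22%) lower. Among the 11127 genes present on all 4 arrays, 78 (0.701%) were higher and 148 (1.33%) lower. Larger shares passed against a single abdominal array: 5.26% above and 4.56% below the virgin array, 4.84% above and 5.13% below the 15 dpc array, and 6.5% above and 5.36% below the PP2 array. Of 657 genes over 2-fold higher than on the 15 dpc abdominal array, which shared the pregnancy and the vehicle, 163 (24.8%) were higher than on the virgin and PP2 arrays as well. Of 697 genes over 2-fold lower, 199 (28.6%) held against all 3. The median smallest fold was 2.36 among the higher genes and 2.57 among the lower genes. The abdominal arrays themselves spanned a median of 1.82-fold for the higher genes and 1.45-fold for the lower genes. The gap from the dorsal array to the nearest abdominal array was wider than the whole abdominal range for 118 of the 163 higher genes and for 178 of the 199 lower genes, beside 2458 of the 7938 genes whose 3 ratios had the same sign. Since the calls were made by the size of this gap, the counts only describe them. Leaving out the virgin array gave 254 higher and 326 lower genes, leaving out the 15 dpc abdominal array 353 and 311, and leaving out the PP2 array 302 and 280. The balance of the directions depended on scaling: 45.0% of calls were higher as deposited, 33.0% with each array set to 1 median of its present signals and 34.9% after quantile normalization.

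**Figure D1:**
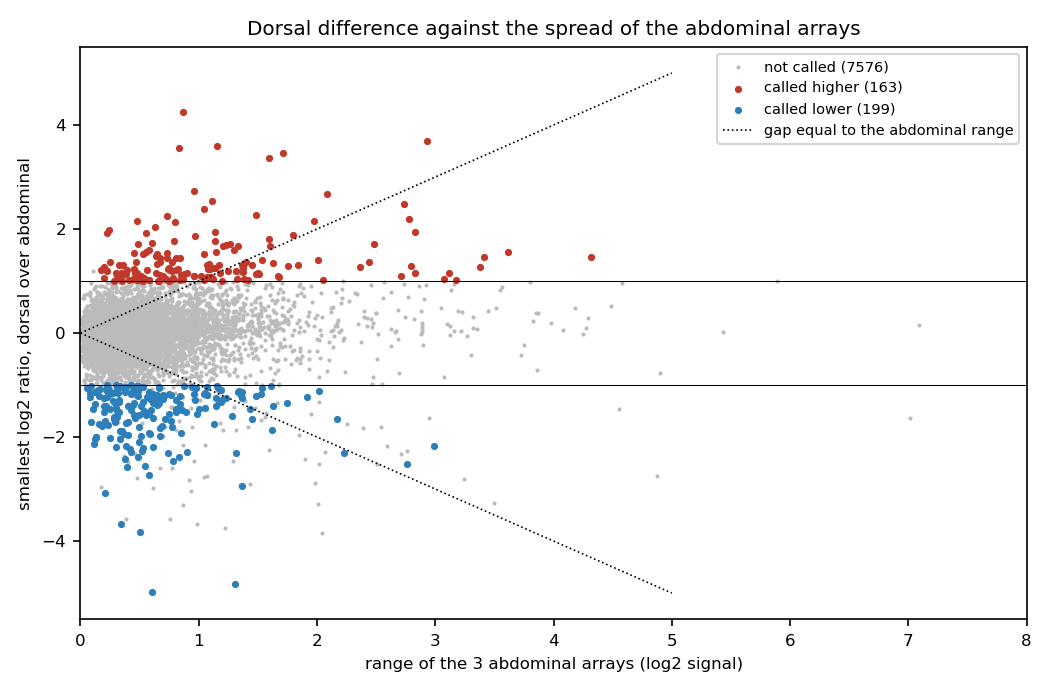
Smallest log2 ratio of the dorsal array over the 3 abdominal arrays, on the vertical axis, against the log2 range of the abdominal arrays, on the horizontal axis. Each point is 1 of the genes whose 3 ratios had the same sign, red and blue points are the 163 genes called higher and the 199 called lower, the solid lines mark 2-fold, and points outside the dotted lines lie farther from the abdominal arrays than these lie from each other.

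Several of the genes farthest above the abdominal arrays encode proteins of the cornified envelope. *Lor*, which encodes loricrin, the main envelope protein, had a signal of 8964 on the dorsal array, 469 on the virgin array, 257 on the 15 dpc abdominal array and 262 on the PP2 array. The dorsal array stood 19.1-fold to 34.8-fold above the others, which lay close together. *Hrnr*, for the filaggrin-like protein hornerin, had 762 on the dorsal array and 47.8, 24.5 and 74.1 on the virgin, 15 dpc and PP2 abdominal arrays. *Wfdc21*, of the whey acidic protein family, had 4051 against 345, 193 and 297 in the same order. The smallest folds were 10.3 for *Hrnr* and 11.7 for *Wfdc21*. *Flg*, for filaggrin, which bundles keratin filaments, was present at 269 on the dorsal array. Its signals were 10.0 (not present) on the virgin array, 18.6 on the 15 dpc abdominal array and 22.2 on the PP2 array, so that the nearest abdominal array was 12.1-fold lower. *Lce1m*, for a late cornified envelope protein, had 915 against 82.9, 32.6 and 25.3. Its probe set and those of other *Lce1* genes may share targets among these near-identical copies.

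Of 34 cornified envelope genes tested, 16 (47.1%) were called higher and 0 lower, beside 1.2% and 1.46% of all genes. Dorsal signals were above all 3 abdominal arrays for 29 of them, beside 27.7% of all genes tested. The median log2 ratio of the list was 1.37 against the virgin array, 1.11 against the 15 dpc abdominal array and 1.49 against the PP2 array, beside −0.01, −0.04 and −0.01 over all genes tested. The protease inhibitor gene *Spink5* had 4170 on the dorsal array against 1016, 718 and 656 on the virgin, 15 dpc and PP2 abdominal arrays, 4.11-fold above the nearest. The proteases it restrains were also called: *Klk7* had 2055 against 533, 720 and 460, and *Klk5* 1084 against 329, 495 and 270. *Tgm3* and *Tgm1*, whose transglutaminases cross-link the envelope, had smallest folds of 3.81 and 2.07. *Asprv1*, for a protease that acts on filaggrin, was 2.32-fold above the nearest abdominal array. The remaining genes called were *Lce1c*, *Lce1a1*, *Lce1a2*, *Kprp* and *Cnfn*, at 2.02-fold to at least 6.67-fold. *Ivl*, for involucrin, was just short of the threshold, with 1514 against 409, 778 and 441. The calls of *Kprp* and *Lce1a1* were lost under each of the other scalings and that of *Tgm1* after quantile normalization, while 14 genes of the list were called under each of them.

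Many of these genes are neighbours in the epidermal differentiation complex, a cluster on chromosome 3. Between *S100a10* and *S100a1*, an interval chosen after the values were seen, 32 genes were tested. Of these 11 (34.4%) were called higher and 0 lower, beside 1.2% and 1.46% of all genes. Most of the 11 were calls of the cornified envelope list counted above, so the 2 counts overlap. *Crct1*, called in the interval but not in the list, had 1909 on the dorsal array and 177, 330 and 152 on the virgin, 15 dpc and PP2 abdominal arrays. Genes of the cluster that serve the hair were not among the calls. *Tchh*, for trichohyalin of the inner root sheath, had 375 on the dorsal array, 129 on the virgin array, 3134 on the 15 dpc abdominal array and 540 on the PP2 array.

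The promoters of *Lor*, *Flg* and *Hrnr* are shown because these were 3 of the 4 genes of the cluster with the largest smallest ratios. Each line gives the 120 bases before the gene start in RefSeq, build GRCm38.p6, on the gene's strand. Capitals mark TATAAA, the TATA box, and TGANTCA, a loose form of the site of AP-1 factors with any base at N. The usual site has C or G there, as in TGAGTCA of *Lor*, and TGAATCA of *Flg* does not.
Lor, chr3:92083143-92083262, minus strand: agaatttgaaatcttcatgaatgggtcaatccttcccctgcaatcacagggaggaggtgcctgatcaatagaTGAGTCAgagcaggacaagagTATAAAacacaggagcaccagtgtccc
Flg, chr3:93273426-93273545, plus strand: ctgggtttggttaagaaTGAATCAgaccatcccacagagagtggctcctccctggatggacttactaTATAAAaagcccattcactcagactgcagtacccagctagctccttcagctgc
Hrnr, chr3:93319629-93319748, plus strand: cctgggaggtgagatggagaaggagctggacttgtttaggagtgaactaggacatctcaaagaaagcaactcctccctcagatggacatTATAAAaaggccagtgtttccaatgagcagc

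In the 250 bases before the start, TATAAA on either strand was found for 12 (44.4%) of the 27 tested cornified envelope genes with a RefSeq promoter entry, beside 9.05% of the 10894 tested genes with an entry. TGANTCA was found for 11 (40.7%), beside 6.00%. Of these, *Flg*, *Sbsn*, *Tchhl1* and *Rptn* matched only with A or T in the middle, outside the usual AP-1 site. Among the 13 called genes with an entry, 5 held TATAAA and 2 held TGANTCA, which were *Lor* and *Flg*. The called members thus held the motifs no more often than the list as a whole. A match is a run of letters and not a measured binding site.

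**Figure D2:**
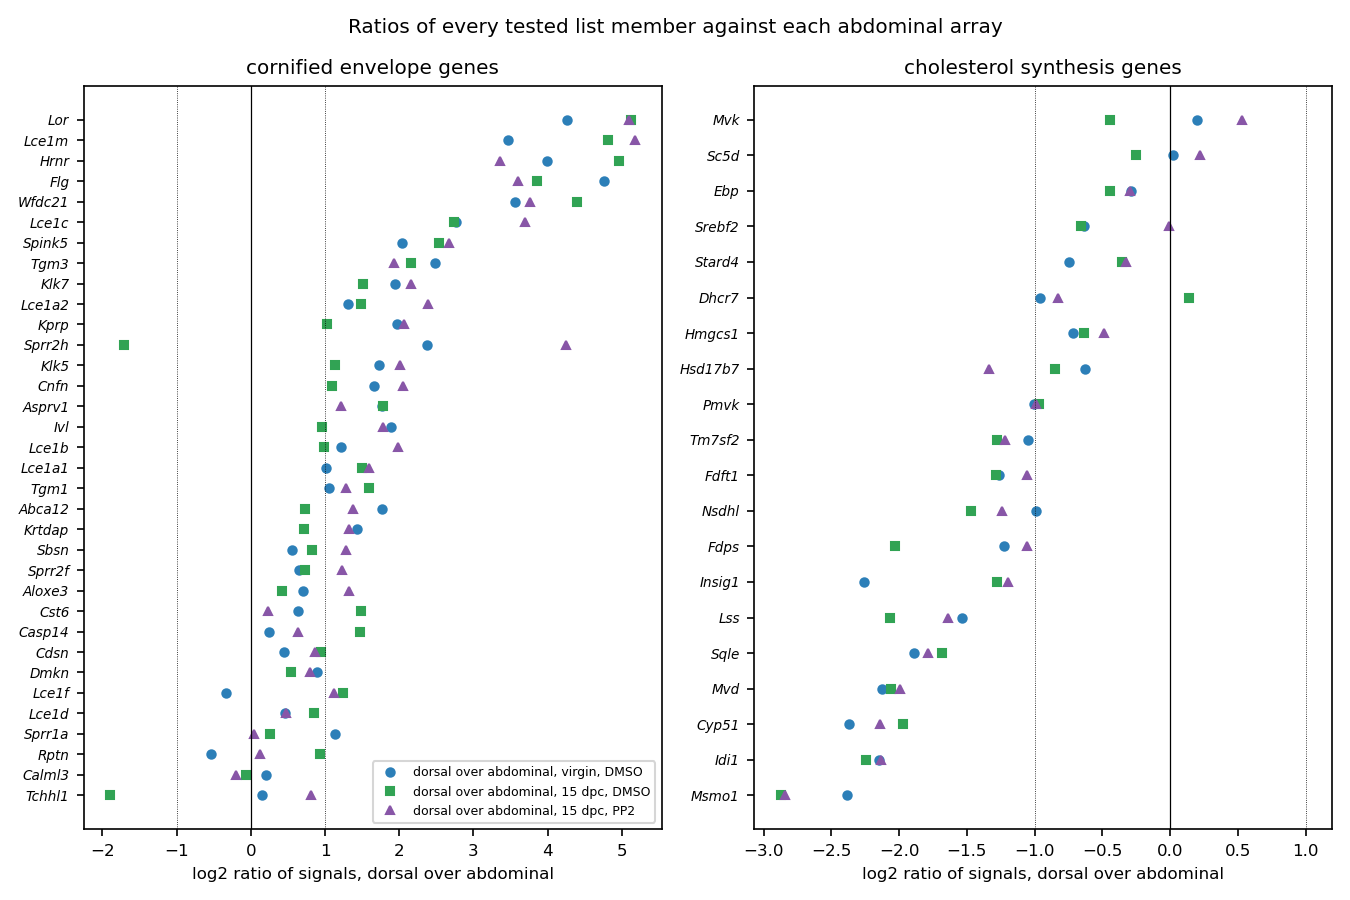
Log2 ratio of the dorsal signal over each abdominal signal for every tested gene of the cornified envelope list (34 genes, left) and the cholesterol synthesis list (20 genes, right). Circles, squares and triangles stand for the virgin, 15 dpc and PP2 abdominal arrays, the solid line marks equal signals and the dotted lines mark 2-fold. The 3 symbols of *Lor* lie above 4 and those of *Msmo1* below −2.

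Genes of the living epidermal layers were counted in separate lists, beside 1.2% of all genes called higher and 1.46% lower. Of 19 epidermal keratin genes, 3 (15.8%) were called higher, *Krt2*, *Krt23* and *Krt78*, and 1 lower, *Krt79*. *Krt2*, a keratin of the upper epidermis, had a dorsal signal of 739 and a PP2 signal of 133, and was not present on the virgin (19.9) and 15 dpc (68.5) abdominal arrays. *Krt79*, which marks the duct of the sebaceous gland and the funnel of the follicle, ran the other way, with 2793 against 8786, 7290 and 7017. Of 33 genes of keratinocyte adhesion and lineage, *Dsc1* and *Cldn4*, for a desmosomal cadherin and a tight junction protein, were called higher and the gap junction gene *Gjb6* lower, the call of *Cldn4* being lost with 1 median for each array. Without the 15 dpc abdominal array 7 keratin and 7 adhesion genes were called higher, beside 353 of all 13585 genes. The summed signal of the cornified list was 107345 on the dorsal array and 45010 to 53421 on the abdominal arrays, while that of the keratin list was 148562 against 65849 to 116629 and that of the adhesion list 193319 against 129381 to 176391. More epidermal cells in the preparation and more RNA of these genes per cell cannot be told apart in bulk RNA, for this and every other list below.

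Other genes with high ratios included enzymes, protease inhibitors and a growth factor. *Hal*, for histidase, which forms urocanate from histidine, had 2027 on the dorsal array against 239, 527 and 306 on the virgin, 15 dpc and PP2 abdominal arrays. *Csta1*, of the cystatin A family of protease inhibitors, had 730 against 107, 226 and 96.3. *Ereg*, for epiregulin, a ligand of the epidermal growth factor receptor, had 385 against 30.0, 104 and 90.5. *Serpina12*, for the serine protease inhibitor vaspin, was present on the dorsal array only, at 758, and was at least 6.40-fold higher there. The same held for the brightest probe set of *Cysrt1*, with at least 3.64-fold. The other probe set of *Cysrt1* was present on all 4 arrays, at 525 against 178, 135 and 136. *Arg1*, for arginase, had 618 against 131, 107 and 78.7, a smallest fold of 4.73.

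Among the higher genes the second largest smallest fold was that of *Ttr*, for the thyroid hormone carrier transthyretin. Its tested probe sets were all of a design that allows binding of related transcripts (cross-hybridisation). It had a dorsal signal of 488 and was not present on the virgin and 15 dpc abdominal arrays. On the PP2 array it was present at 37.7, which was 12.9-fold lower. *Lgi4*, for a secreted protein that Schwann cells need to form myelin, had 2654 against 600, 700 and 687 on the virgin, 15 dpc and PP2 abdominal arrays. These 3 values spanned 0.22 on the log2 scale, and the dorsal array was 3.79-fold above the highest. *Klf15*, for a transcription factor that responds to glucocorticoids, had 624 against 145, 213 and 180. *Snx22*, *Ajap1*, *Gp1bb*, *Wfdc3*, *Fam107a*, *Sectm1b*, *Kcnt2* and the unnamed *2310011E23Rik* completed the 20 genes with the highest ratios among those present on all 4 arrays, at 2.91-fold to 4.80-fold. The other tested probe set of *Gp1bb* had mixed signs, at 75.3 against 86.2, 72.3 and 64.5. Among genes not present on some abdominal array, *Fxyd7*, *Hemgn* and *F3*, the tissue factor of blood clotting, had smallest folds of 3.39 to 4.43. That of *Hemgn* was a lower bound.

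**Figure D3:**
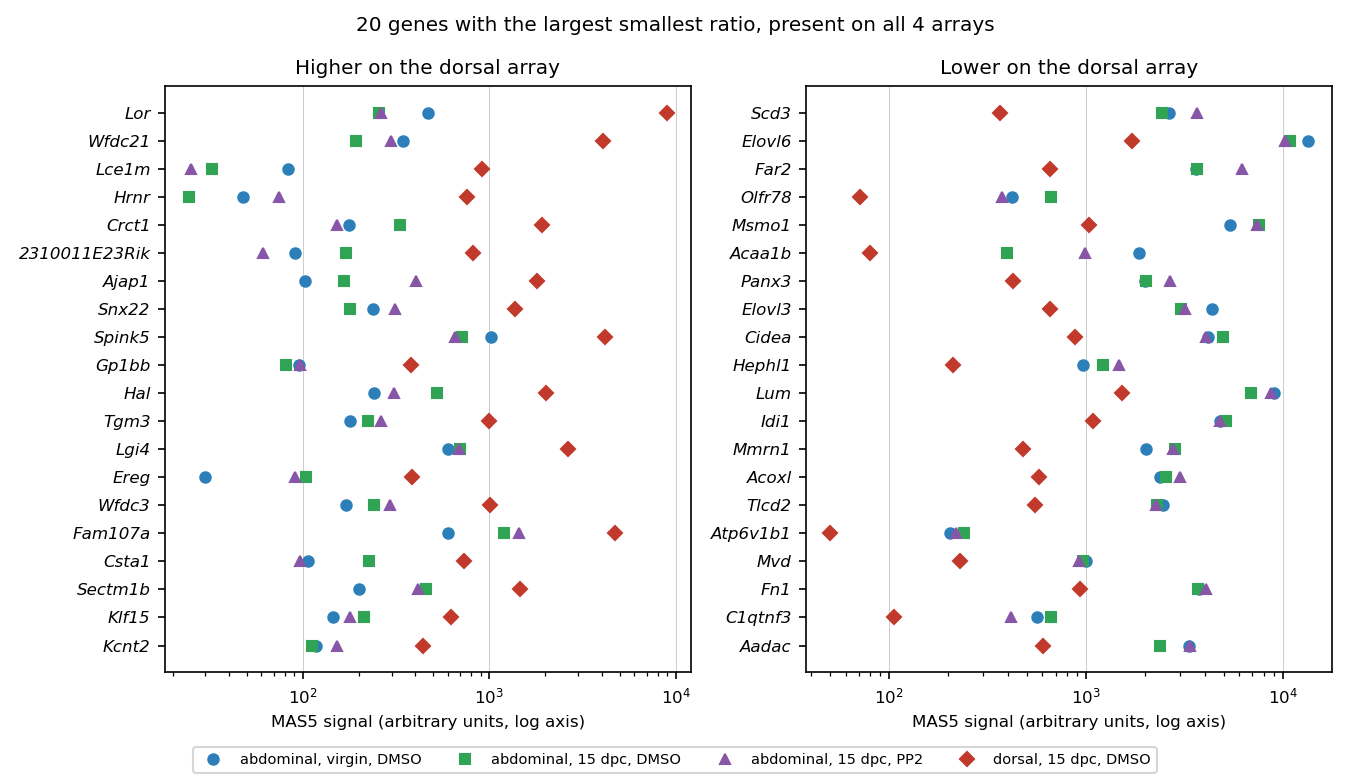
Signals on each array, on a log axis, for the 20 genes with the highest (left) and the lowest (right) smallest ratio among genes present on all 4 arrays. Red diamonds are the dorsal array and blue circles, green squares and purple triangles the virgin, 15 dpc and PP2 abdominal arrays. For each gene the diamond lies outside the other 3 symbols, with *Lor* at the top left and *Scd3* at the top right.

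Among genes present on all 4 arrays, lipid genes led those below the abdominal arrays. *Ccne1*, *Grp* and *Fcgr3*, not present on the dorsal array and given below, had larger bounded folds. *Scd3*, for a desaturase found in sebaceous glands, had 367 on the dorsal array, 2633 on the virgin array, 2444 on the 15 dpc abdominal array and 3644 on the PP2 array. The abdominal arrays were 6.66-fold to 9.93-fold higher. *Elovl6*, for an elongase of long-chain fatty acids, had 1719 against 13443, 10900 and 10228. *Far2*, for a reductase that makes the alcohols of wax esters, had 657 against 3603, 3684 and 6191. In each case the abdominal arrays lay much closer to each other than to the dorsal array. *Scd3* and *Far2* are on the list of sebaceous gland genes and *Elovl6* is not. Of the 12 genes of this list that were tested, 5 (41.7%) were called lower and 0 higher, beside 1.46% and 1.2% of all genes. The medians were −0.78, −0.85 and −0.53 against the virgin, 15 dpc and PP2 abdominal arrays. By any amount 8 were below and 1 above all 3 abdominal arrays, beside 30.7% and 27.7% of all genes tested. Against the PP2 array alone 3 were over 2-fold higher on the dorsal array, and against the 15 dpc abdominal array 1 was. *Elovl3*, *Cidea* and *Fa2h*, for a second elongase, a lipid droplet protein and a fatty acid hydroxylase, were the other 3 called, at 2.76-fold to 4.61-fold. The summed signal of the list was 39150 on the dorsal array and 64951 to 77901 on the others. The same 5 genes were called under both other scalings. *Mc5r*, for a melanocortin receptor of sebaceous cells, was not called, at 98.3 against 155, 179 and 130.

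Cholesterol synthesis had the highest share of lower genes of the 39 gene lists. Of 20 tested genes, all of them present on all 4 arrays, 10 (50.0%) were called lower and 0 higher, beside 1.46% and 1.2% of all genes. By some amount 17 were below all 3 abdominal arrays, beside 30.7% of all genes tested. The median log2 ratio was −1.03, −1.28 and −1.12 against the virgin, 15 dpc and PP2 abdominal arrays. *Msmo1*, for the methylsterol monooxygenase, had 1034 on the dorsal array against 5410, 7582 and 7406. Its other tested probe set had mixed signs, at 143 against 183, 209 and 87.8. *Idi1*, whose enzyme forms dimethylallyl diphosphate, had 1085 against 4817, 5154 and 4769. The abdominal values of *Idi1* spanned 0.11 on the log2 scale, while the dorsal array was 2.14 below the nearest. *Cyp51*, for lanosterol demethylase, had 741 against 3831, 2901 and 3269. *Mvd*, for mevalonate diphosphate decarboxylase, had 230 against 1003, 960 and 918. *Sqle* and *Lss*, which act in turn on squalene, had smallest folds of 3.21 and 2.90. The other genes called were *Insig1*, a regulator that retains the sterol sensor, and *Fdps*, *Fdft1* and *Tm7sf2*, at 2.07-fold to 2.29-fold.

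The early enzyme gene *Hmgcs1* had 7363 against 12091, 11449 and 10324, which was 1.40-fold below the nearest. *Srebf2*, for the transcription factor of the pathway, had 322 against 502, 508 and 324. Differences along the pathway were thus unequal. The calls of *Fdps* and *Fdft1* were lost after quantile normalization and that of *Lss* was lost without the probe sets whose design allows cross-hybridisation. With any 1 abdominal array left out, 10 or 11 genes were called, beside 280 to 326 of all 13585 genes called lower.

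The promoters of the pathway share the CCAAT box, bound by the factor NF-Y. The 120 bases before the start of 4 called genes are shown from RefSeq, build GRCm38.p6, on the gene's strand, with CCAAT or its reverse complement ATTGG in capitals.
Idi1, chr13:8885486-8885605, plus strand: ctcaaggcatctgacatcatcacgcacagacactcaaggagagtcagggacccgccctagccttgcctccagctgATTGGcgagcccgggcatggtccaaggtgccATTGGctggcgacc
Cyp51, chr5:4104698-4104817, minus strand: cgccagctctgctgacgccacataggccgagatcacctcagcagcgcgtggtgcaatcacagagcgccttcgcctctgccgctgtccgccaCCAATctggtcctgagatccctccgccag
Lss, chr10:76531485-76531604, plus strand: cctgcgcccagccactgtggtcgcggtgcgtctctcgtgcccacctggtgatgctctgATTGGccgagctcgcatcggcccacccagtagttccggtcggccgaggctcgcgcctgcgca
Tm7sf2, chr19:6067851-6067970, minus strand: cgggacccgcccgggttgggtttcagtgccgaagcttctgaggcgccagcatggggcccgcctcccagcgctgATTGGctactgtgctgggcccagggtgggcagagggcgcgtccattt

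Of the 16 tested cholesterol genes with a promoter entry, 16 held CCAAT on either strand in the 250 bases before the start, beside 40.1% of tested genes and 37.5% of all 27025 genes with an entry. The 9 of these genes that were not called held it as well as the 7 that were. TCACNCCAC, a form of the sterol response element, was found for 1 of the 16, *Hmgcs1*, beside 1.25% of tested genes. Among the 7 called genes with an entry 0 held these letters, which says only that they were not in this window.

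Other genes of lipid metabolism had low dorsal ratios without being on either list. *Acaa1b*, for a peroxisomal thiolase, had 79.6 on the dorsal array against 1850, 395 and 993 on the virgin, 15 dpc and PP2 abdominal arrays. *Acoxl*, for a relative of the acyl-CoA oxidases, had 577 against 2366, 2547 and 2991. *Aadac*, for an esterase of the endoplasmic reticulum, had 608 against 3333, 2383 and 3389, and *Tlcd2* 551 against 2462, 2281 and 2255. The smallest fold of these 4 genes was 3.92 to 4.96. Among 14 adipocyte genes 2 were called lower, beside 1.46% of all genes. They were *Cidea*, which is also on the sebaceous list, and *Lpl*, the lipoprotein lipase gene, at 1596 against 4722, 6402 and 7944. Of the other genes of the 20 with the lowest ratios, *Panx3*, *Hephl1*, *Olfr78* and *Atp6v1b1* encode a channel, a ferroxidase, an olfactory receptor and a proton pump subunit, at 4.04-fold to 5.25-fold. *Grp*, for gastrin-releasing peptide, was not present on the dorsal array and was at least 12.1-fold higher on the abdominal arrays. *Reep6* and *Aadacl4fm5* were not present there either, with bounds of at least 5.35-fold and 4.98-fold. The fat hormone gene *Adipoq* had 168 against 434, 850 and 240, and its smallest fold was 1.42. The summed signal of the adipocyte list was 42557 on the dorsal array and 49420 to 73009 on the others, and the part of remaining fat in the lipid results was not tested.

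**Figure D4:**
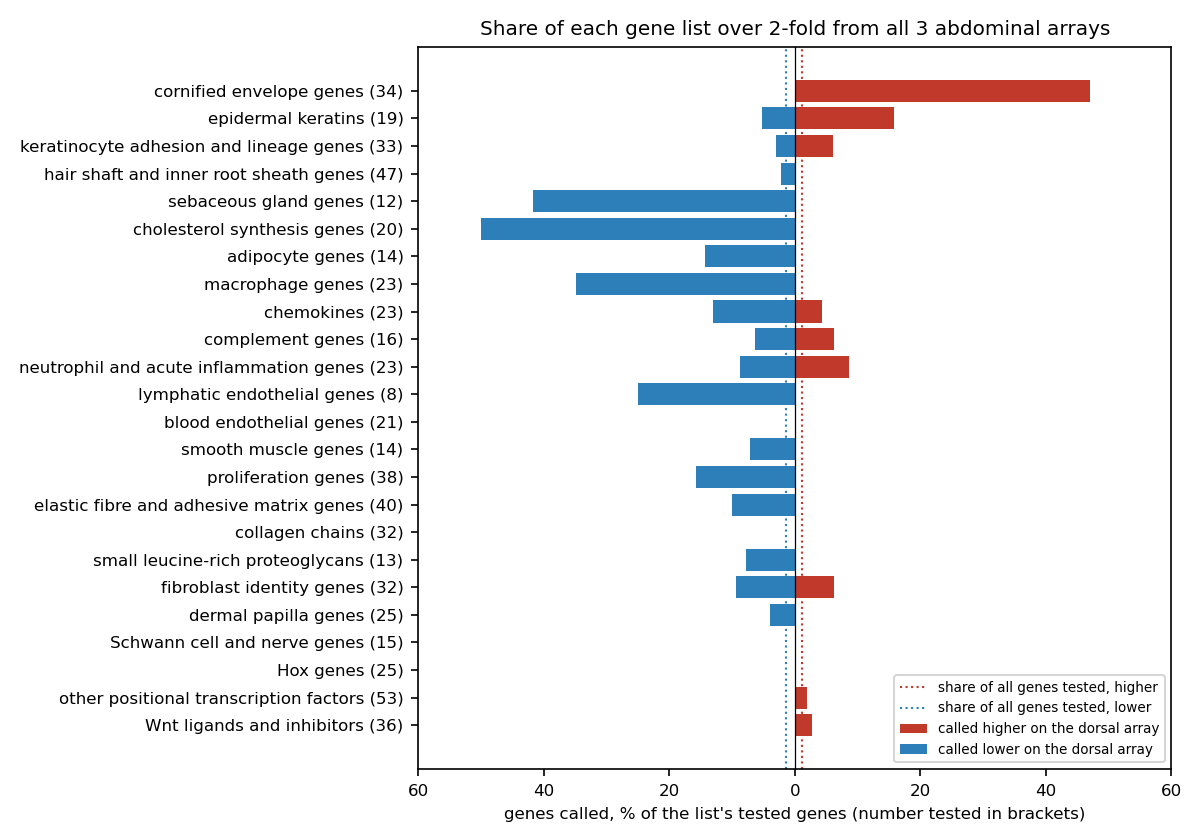
Share of the tested genes of 24 gene lists called over 2-fold higher (red, right) or lower (blue, left) on the dorsal array than on all 3 abdominal arrays, in percent, with the number tested in brackets. Dotted lines mark the shares over all genes tested, 1.2% higher and 1.46% lower. The cornified envelope list reaches 47.1% on the right, and the cholesterol, sebaceous and macrophage lists reach 50.0%, 41.7% and 34.8% on the left.

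Macrophage genes were lower as well. Of 23 tested, 8 (34.8%) were called lower and 0 higher, beside 1.46% and 1.2% of all genes. By any amount 19 were below all 3 abdominal arrays, beside 30.7% of all genes tested. The medians were −2.30 against the virgin array, −1.30 against the 15 dpc abdominal array and −0.99 against the PP2 array. *Mrc1*, for the mannose receptor of resident macrophages, had 90.1 on the dorsal array against 496, 235 and 197. *C1qb*, for a chain of complement C1q, had 114 against 672, 293 and 263. *Pf4*, for a platelet and macrophage chemokine, had 152 against 863, 384 and 382. In each of these the virgin array was the highest. *Fcgr3*, for a low-affinity Fc receptor, was not present on the dorsal array, and its abdominal signals of 106 to 134 were at least 11.4-fold higher. *Lyve1*, *Cd209d*, *Clec10a* and *Fcgr1* were the others called. The lysozyme gene *Lyz1* and the receptor gene *Mertk* had smallest log2 ratios of 0.28 and 0.50, and neither was called. The summed signal of the list, lysozymes included, was 13083 on the dorsal array and 13993 to 17626 on the others. The count of called genes was 13 without the PP2 array and 4 when present calls were asked of all 4 arrays. Over all 13585 genes these settings gave 280 and 148 lower calls.

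Other immune lists held calls in both directions or none, where 1.2% of all genes were called higher and 1.46% lower. *Pf4* and *C1qb*, given again here, were already counted among the macrophage genes. *Itgb2*, for a leukocyte integrin chain, was not present on the dorsal array and was at least 4.91-fold higher on the abdominal arrays. Of 23 chemokine genes, *Ccl8*, *Pf4* and *Ccl9* were called lower and *Cxcl14*, made by epithelium and fibroblasts, higher. *Ccl8* had 201 on the dorsal array against 2239, 782 and 728, and *Cxcl14* 5518 against 1099, 2104 and 2347. Of 16 complement genes, *C1qb* was lower and *Masp1*, for a protease of the lectin pathway, higher, though *Masp1* was not called with 1 median for each array. Among 23 genes of neutrophils and acute inflammation, *Orm1* and *S100a9* were called higher and *Lcn2* and *Clec7a* lower. *S100a9* was dim, at 64.1 on the dorsal array, and was not present on any abdominal array. No gene was called among 10 of antigen presentation, 10 of T and natural killer cells, 4 of mast cells and 19 of the interferon response.

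**Figure D5:**
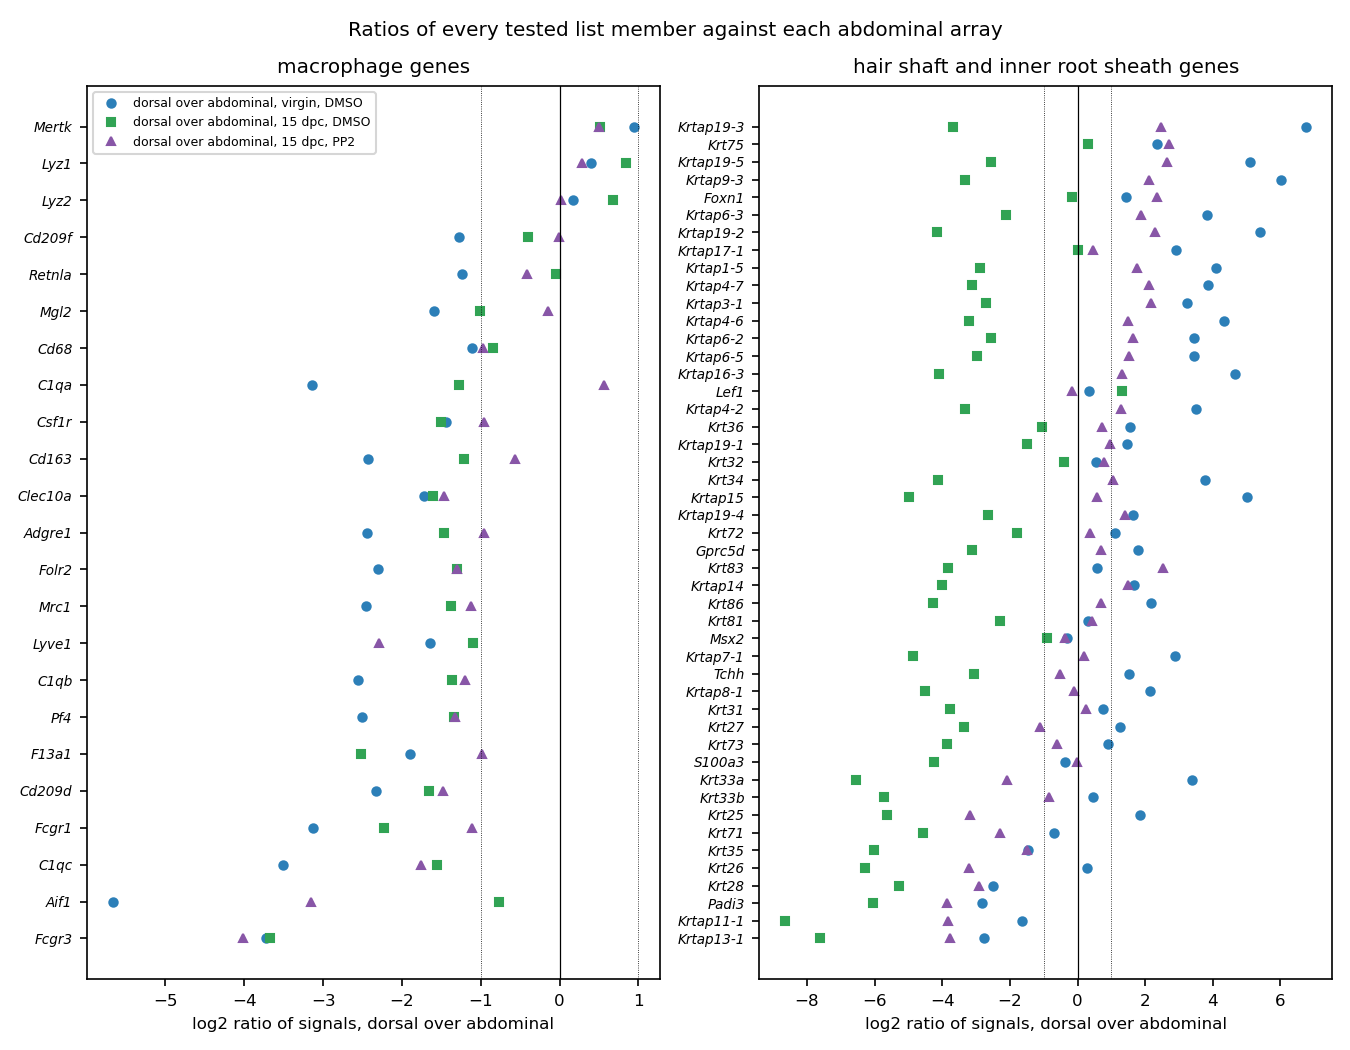
Log2 ratio of the dorsal signal over each abdominal signal for every tested macrophage gene (23 genes, left) and gene of the hair shaft and inner root sheath (47 genes, right), with circles, squares and triangles for the virgin, 15 dpc and PP2 abdominal arrays. Most macrophage symbols lie left of 0 whichever the abdominal array. Most hair squares lie left of 0 and most hair circles right of it.

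Hair genes, in contrast, changed their direction with the state of the abdominal sample. Of 47 genes of the hair shaft and inner root sheath, 0 were called higher and 1 lower, beside 1.2% and 1.46% of all genes. Without the 15 dpc abdominal array 17 were called higher, beside 353 of all 13585 genes, and without the virgin array 6 lower, beside 326. The hair genes' median log2 ratio was 1.66 against the virgin array, −3.35 against the 15 dpc abdominal array and 0.68 against the PP2 array. The summed signal was 12245 on the dorsal array, 3583 on the virgin array, 99784 on the 15 dpc abdominal array and 8324 on the PP2 array, so that the dorsal value lay between those of the abdominal states. *Krt28*, a keratin of the inner root sheath, was the gene called lower. It was not present on the dorsal array, at 23.3, and had 133, 903 and 177 on the virgin, 15 dpc and PP2 abdominal arrays. Of 25 dermal papilla genes, *Snap91* was called lower, and 5 genes were without the 15 dpc abdominal array, beside 311 of all 13585 genes.

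Calls among genes of dividing cells were in 1 direction. Of 38 proliferation genes, 6 (15.8%) were called lower and 0 higher, beside 1.46% and 1.2% of all genes. By any amount 32 were below all 3 abdominal arrays, beside 30.7% of all genes tested. The medians were −0.59, −1.02 and −1.02 against the virgin, 15 dpc and PP2 abdominal arrays. *Mki67*, for the Ki67 antigen of cycling cells, had 208 on the dorsal array against 499, 777 and 720. *Ccne1*, for cyclin E1, and *Bub1*, for a kinase of the spindle checkpoint, were not present on the dorsal array. They were at least 12.5-fold and 4.91-fold higher on the abdominal arrays. The 1 tested probe set of *Ccne1* is of a design that allows cross-hybridisation. *Cenpf*, *Hmmr* and *Birc5* were called at 2.05-fold to at least 2.39-fold. *Hmmr* had other probe sets that did not follow, 1 in the opposite direction and 2 with mixed signs, and the other probe set of *Bub1* had mixed signs. *Esco2* and *Kntc1*, which serve chromatid cohesion and the spindle checkpoint, were further genes not present on the dorsal array, with bounds of at least 6.13-fold and 4.85-fold. Against the pregnant abdominal arrays alone, without the virgin array, 16 genes of the list were called, beside 326 of all 13585 genes called lower. The list's count was 2 with present calls on all 4 arrays, 3 with log2(signal + 32) and 4 when agreement of all present probe sets was required. CCAAT was found for 25 (78.1%) of the 32 proliferation genes with a promoter entry, beside 40.1% of tested genes. Among the 6 called genes 4 held it, so they held it no more often than the list as a whole.

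Among matrix genes a few were called. *Lum*, for lumican, a proteoglycan that spaces collagen fibrils, had 1521 on the dorsal array against 8972, 6871 and 8663 on the virgin, 15 dpc and PP2 abdominal arrays. *Fmod*, for the related fibromodulin, had 18858 against 1614, 1734 and 9534. This brightest probe set was 11.7-fold and 10.9-fold above the virgin and 15 dpc abdominal arrays. It was 1.98-fold above the PP2 array, and so *Fmod* was not called. The 5 other tested probe sets of *Fmod* were also above each abdominal array. Over the PP2 array they stood 3.94-fold, 2.21-fold, 2.08-fold, 2.02-fold and 1.82-fold higher, so the missing call rested on the choice of probe set. *Lum* was the 1 gene called among 13 small leucine-rich proteoglycans. Without the PP2 array 4 of these were called higher, beside 302 of all 13585 genes. *Fn1*, for fibronectin, the adhesive matrix protein, had 933 against 3743, 3720 and 4069. With *Npnt*, *Fbln1* and *Mfap5* it made 4 genes called lower of 40 for elastic fibres and adhesive matrix, where 0 were higher. Over all genes 1.46% were called lower and 1.2% higher. This list's count of lower genes was 1 when agreement of all present probe sets was required, beside 142 of all 13585 genes. None of 32 collagen chains was called, with medians of 0.38, 0.16 and 0.11, and none of 13 tendon and fascia genes, with medians of −0.24, 0.42 and −0.42. The collagen gene *Col1a1* had 3344 against 4844, 11530 and 6630, with a smallest fold of 1.45. Of 32 matrix proteases and inhibitors, *Mmp3*, for stromelysin, was called lower at 387 against 1778, 1789 and 1422.

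Genes of fibroblast identity moved in both directions. Of 32 tested, *Gpx3* and *Apod* were called higher and *Dpt*, *Mfap5* and *Has2* lower, beside 1.2% and 1.46% of all genes. *Gpx3*, for the secreted glutathione peroxidase, had 3536 on the dorsal array against 781, 843 and 1297. *Apod*, for apolipoprotein D, had 24234 against 7539, 7201 and 12065, just past the threshold, and its call was lost under both other scalings. *Dpt*, for dermatopontin, had 2055 against 8105, 4220 and 6896. *C1qtnf3*, for a secreted adipokine, had 105 against 565, 664 and 418.

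Genes that place a cell on the body axes gave 1 call. Counts of 0 or 1 in lists of this size are near the shares called over all genes, 1.2% higher and 1.46% lower. Of 25 *Hox* genes tested, 0 were called in either direction, 5 were above and 6 below all 3 abdominal arrays, and the medians were −0.06, 0.22 and −0.22. By any amount, 27.7% of all genes were above and 30.7% below all 3. Of 53 other positional transcription factors, 1 was called: *Dlx5*, a distal-less homeobox gene, had 201 on the dorsal array against 56.8, 76.3 and 97.4, and the call was lost under both other scalings. Without the virgin or the 15 dpc abdominal array 2 of these factors were called higher and 2 lower. Over all 13585 genes these settings gave 254 and 353 higher and 326 and 311 lower calls. *Pax3*, a gene of neural crest and dorsal somite cells, had 1297 against 277, 328 and 735, a smallest log2 ratio of 0.82. *Tbx2* had 950 against 379, 517 and 531, a smallest log2 ratio of 0.84. *Prrx2* ran the other way, at 111 against 245, 206 and 413. *Tbx15*, which sets the border between dorsal and ventral coat colour in the mouse, had 832 against 780, 638 and 1421, so that the dorsal value lay within the abdominal range. *En1*, a gene of ventral ectoderm and of dermal fibroblasts of the trunk, had 91.3 against 75.5, 26.7 and 42.1.

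Signalling genes gave single calls. With 1.2% of all genes called higher and 1.46% lower, 1 call in lists of this size says little about a list. *Igfbp2*, for an insulin-like growth factor binding protein, had 646 on the dorsal array, 2023 on the virgin array, 9084 on the 15 dpc abdominal array and 3113 on the PP2 array. It was the 1 gene called, as lower, of 19 in this axis, and its smallest fold was 3.13. *Sfrp1*, for a secreted inhibitor of Wnt proteins, had 992 against 857, 851 and 888, a smallest log2 ratio of 0.16 whose sign did not hold with 1 median for each array. The other 4 tested probe sets of *Sfrp1* had mixed signs. Of 36 Wnt ligands and inhibitors, *Dkkl1* was called higher, and *Dkk3* had 4790 against 516, 939 and 2396, just outside the threshold. The epithelial T-box gene *Tbx3* had 1280 against 1137, 719 and 1198, which did not hold its sign with 1 median for each array. Its other 2 tested probe sets were above all 3 abdominal arrays, 1 of them at 1457 against 862, 610 and 751. *Gdf10*, of the BMP family, was called lower, the 1 call among 30 genes of TGF-β and BMP ligands and antagonists.

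Vessel, muscle and nerve genes completed the picture. *Mmrn1*, for multimerin 1, a protein of lymphatic endothelium and platelets, had 476 on the dorsal array against 2023, 2847 and 2759. With *Lyve1*, which is also on the macrophage list, it was called lower among 8 lymphatic genes, beside 1.46% of all genes. Neither call held when agreement of all present probe sets was required. The summed signal of the lymphatic list was highest on the dorsal array, at 22634 against 16370, 16982 and 20859. Of 21 genes of blood endothelium 0 were called. Of 14 smooth muscle genes 10 were below all 3 abdominal arrays, beside 30.7% of all genes tested, and 1, *Ldb3*, was called lower. *Acta2*, for smooth muscle actin, had 7569 against 14744, 16453 and 10345, a smallest fold of 1.37. *Vim*, for vimentin of mesenchymal cells, had 42093 against 39451, 29482 and 24733. After quantile normalization its 3 ratios no longer had the same sign. Of 12 pericyte genes *Cspg4* was called higher, with 2676 against 1223, 925 and 1286, a call lost with 1 median for each array. *Myl1*, for a myosin light chain of fast muscle, was lower, the 1 call among 15 skeletal muscle genes. Of 15 Schwann cell and nerve genes, all present on all 4 arrays, 0 were called. By any amount 8 were above all 3 abdominal arrays, beside 27.7% of all genes tested. Beside 302 of all 13585 genes, 6 Schwann cell and nerve genes were called higher without the PP2 array. Their highest ratios were those of *Sox10*, a neural crest transcription factor, with 3162 against 561, 864 and 1720, and *Ngfr*, the low-affinity neurotrophin receptor gene, with 827 against 229, 326 and 421. *Dct*, for a melanin enzyme, was the 1 gene called lower of 11 melanocyte genes, at 205 against 498, 782 and 521.

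The threshold itself separated genes with almost equal ratios. Just inside it among genes present on all 4 arrays were *Pik3ip1*, at 2370 against 949, 1185 and 748, and *Prkca*, at 2417 against 805, 765 and 1206. *Rapgefl1*, at 365 against 101, 184 and 133, was just outside. Below the abdominal arrays, *Pex11g* was just inside at 158 against 371, 346 and 317, and *Cdca5* just outside at 48.5 against 107, 96.5 and 133. Genes measured by several probe sets gave a check within the arrays. The 43 higher genes with other tested probe sets had 54 of these, of which 45 had all 3 ratios in the same direction and 3 in the opposite one. The 79 lower genes had 110 others, with 82 in the same direction and 5 in the opposite one.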

How the data were processed

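Dermal cell RNA had been labelled with a 3′ in vitro transcription kit and hybridised to Affymetrix mouse arrays, 1 for each of 4 conditions. The values deposited by the authors are MAS5 signals, an intensity for each probe set on a linear scale, with a detection call. The submitters' processing notes name version 1 of Affymetrix Expression Console. The arrays were already scaled to 1 trimmed mean (500.0) and were used as deposited. Log2 ratios were computed from these deposited intensities with Python 3.11.15, NumPy 2.4.6 and pandas 2.3.3. The 932 probe sets with several symbols, 9160 with none and 64 controls were left out. Symbols came from the platform annotation and were checked through the Entrez numbers of 34741 probe sets. The files name no genome build, and coordinates are those of the RefSeq promoters.

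The brightest tested probe set, by mean log2 signal, stood for a gene. A dimmer signal without a present call was raised to the dimmest present signal of its array where it was below that, and the fold is then a lower bound ("at least"). With 1 array for each condition no test was run, and precision is limited by the number of arrays.

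The genes named are the 20 with the largest smallest ratio in each direction among those present on all 4 arrays, the 10 in each direction with the largest bounded fold, the called members of 39 gene lists with up to 5 others or defining markers, and *Sfrp1*, *Igfbp2*, *Acta2*, *Vim* and *Tbx3*. The 5 genes named beside the threshold were chosen after their values were seen, as those nearest to it. The members and lists were chosen with earlier results of these data known. The alternatives were 2 other scalings, a pseudocount of 32, other thresholds, detection filters and probe set rules, the mean of the abdominal arrays, and leaving out each abdominal array.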

Additional observations from a re-analysis of the deposited data

How the results depend on the processing

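Counts moved with the threshold and the reference more than with the scaling. For genes called higher, 163 as reported, the count was 92 with log2(signal + 32), 527 at 1.5-fold, 38 at 3-fold, 78 with present calls on all 4 arrays, 562 against the mean of the abdominal arrays, 256 by any probe set of the gene and 254 to 353 without 1 abdominal array. For genes called lower, 199 as reported, it was 306 with no detection filter, 546 at 1.5-fold, 66 at 3-fold, 414 against the mean and 280 to 326 without 1 abdominal array. Probe sets called higher, 291 as reported, numbered 154 with log2(signal + 32), 986, 64, 144 with present calls on all 4 arrays, 1105 against the mean and 485 to 609 without 1 abdominal array, where 986 and 64 are at 1.5-fold and 3-fold. Probe sets called lower, 301 as reported, numbered 493 with no detection filter, 922 at 1.5-fold, 99 at 3-fold, 657 against the mean and 454 to 527 without 1 abdominal array. Those under the other alternatives lay within 1.5 times the reported count. Of the 163 higher genes, 117 were called with 1 median of present signals and 126 after quantile normalization, and of the 199 lower genes 199 and 195 were. The 1 median shifted the all-gene median against the PP2 array from −0.01 to −0.19 and that against the 15 dpc abdominal array from −0.04 to −0.11, and quantile normalization shifted the former to −0.12. The immediate early and dissociation stress list, with 0 of 26 genes called and a median of 0.25 against the PP2 array, had −0.017 there after quantile normalization. Dim genes depend most on the pseudocount, with which 19 named calls were lost. Without probe sets of shared design *Masp1* lost its direction, and *Ttr*, *Ccne1*, *Lce1m* and *Panx3* had no tested probe set left. The smallest ratios of *Sfrp1* and *Tbx3* lost their direction with 1 median and that of *Vim* after quantile normalization. No paired analysis was possible because each condition had 1 array. The cause of these changes was not tested.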

Other observations

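Some groups outside the comparisons above gave values of the same kind. Of 15 genes of steroid hormone and prolactin receptors and response, 0 were called. By any amount 8 were above all 3 abdominal arrays, beside 27.7% of all genes tested. The medians were 0.48, 0.29 and 0.10 against the virgin, 15 dpc and PP2 abdominal arrays. *Per1*, a clock gene that glucocorticoids induce, had 2005 on the dorsal array against 934, 734 and 1127. Of 5 mammary gland genes tested, *Csn2*, for beta-casein, was called higher at 105 against 23.8, 50.2 and 37.7, a dim signal whose call was lost under both other scalings. The stress genes *Fos* and *Jun* had dorsal signals of 33745 and 27231, above all 3 abdominal arrays, where they ranged over 16605 to 29700 and 13058 to 22427. Neither was called. Of 2 erythroid genes tested, 0 were called.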
